A study of Mus musculus with 451 samples.

Results

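Genes of the hypoxia response and of vessel growth were followed through single cells of mouse tail tendon. The 10 genes were chosen by name: the hypoxia factors Hif1a and Epas1, the growth factors Vegfa, Vegfb and Vegfc, the receptors Flt1, Nrp1, Nrp2 and Tek, and the Tek ligand Angpt1. All 10 were rows of a table of 48795 genes, of which 25841 had a read, and all 10 had reads in both genotypes. The cells came from wild-type (WT) and Mkx-/- mice of the C57BL/6 strain at 4 weeks of age, and were released from tail tendon with collagenase. Mkx encodes Mohawk, a homeobox transcription factor of tendon, and the mice that lack it were used as a model of heterotopic ossification, the growth of bone inside soft tissue. The comparison of WT and Mkx-/- cells asks how vessel growth genes stand in tendon cells of the ossifying tissue. There were 227 WT and 224 Mkx-/- cells. Which part of Mkx was deleted, how many mice gave cells and how the cells fell on capture chips were not given in the sources used here.

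Hypoxia-inducible factors are pairs of an oxygen-regulated alpha subunit and a stable partner. With little oxygen the alpha subunit escapes hydroxylation and breakdown, and the pair switches on genes of glycolysis and vessel growth. VEGF ligands act on tyrosine kinase receptors of endothelial cells with neuropilins as co-receptors, and angiopoietins act on Tek, also called Tie2, which steadies vessels. Tendon is a tissue with few vessels. Hif1a and Epas1 messages do not report the protein, whose level is set mainly by breakdown.

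Each genotype was a single sample for the purpose of error, since every library was 1 cell and no label tied a cell to a mouse. No test between genotypes was therefore possible and no p-value is given. Levels are CPM, the summed reads of a gene per 1000000 reads of the same cells, with exact Poisson 95% intervals, and ratios are log2 CPM ratios of Mkx-/- to WT with exact conditional binomial 95% intervals. Intervals, and the floor of 3 reads used where a sum was 0, cover counting error only, and the reads carry no molecular identifiers. A gene was described as higher or lower where it had at least 100 reads over both genotypes and differed by at least 1.5-fold. In all, WT cells gave 13630536 reads (median 51788 a cell) and Mkx-/- cells 14145394 (median 56121). Mkx itself stood at 33.8 CPM in WT and was read in 22.9% of the cells, against 15.5 CPM and 12.9% in the cells labelled Mkx-/-, so reads of the targeted gene remained there. Over all 10963 genes with enough reads the median log2 ratio was 0.05. Exons of Hif1a and Angpt1 overlap an annotated gene on the opposite strand, and reads of both could not be told apart without strand information.

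Cells were grouped into 3 clusters rebuilt after the study's method. The TPC-like cells (45.9% of all) had all 5 markers of tendon progenitor cells (TPCs) at their highest mean, and the TC-like cells (34.1%) had all 6 markers of tenocytes (TCs) at theirs. The remaining 90 cells, led by Mmp10, Mmp3 and Flrt3, had both tenoblast markers at their highest mean, Itm2a at 535 CPM (149.9 in the TPC-like and 128.9 among the TC-like) and Lgals3 at 1673 CPM (969.995 and 1090.2). A pair of markers is too few for a name, and these cells are called cluster 3. TPC-like cells made up 47.1% of WT and 44.6% of Mkx-/- cells, cluster 3 20.3% and 19.6%, and TC-like cells 32.6% and 35.7%. Median depth was 43122 and 48385 reads in TPC-like cells, 36924 and 44244 in cluster 3, and 82854 and 72897 in TC-like cells. Epas1, Vegfb and Nrp2 were among the 1693 genes used to align the cells, so their levels between clusters are a description.

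One WT cell stood apart. It was the deepest cell, with 335813 reads (2.46% of all WT reads) and 9924 detected genes, and it fell among the TC-like cells. It held reads of 14 of 15 endothelial markers, all but Plvap, where no other WT cell held more than 3 and no Mkx-/- cell more than 4. It also held 8 of 13 mural markers, together with 13922 reads of the tendon collagen gene Col1a1 and 510 of Tnmd. Values that rest on it are given with and without it.

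Promoter sequence is shown for Nrp2 and Vegfb, the members with at least 100 reads that had the largest higher ratio in Mkx-/- cells, and for Vegfa, the best known target of hypoxia factors. Each is the 250 bases before the RefSeq gene start in GRCm38.p6, 5′ to 3′ on the gene's strand. Capitals mark the core letters of a hypoxia-response element, ACGTG or GCGTG, on either strand (CACGT or CACGC when read from the other).
Nrp2 (chr1:62703067-62703316, plus strand): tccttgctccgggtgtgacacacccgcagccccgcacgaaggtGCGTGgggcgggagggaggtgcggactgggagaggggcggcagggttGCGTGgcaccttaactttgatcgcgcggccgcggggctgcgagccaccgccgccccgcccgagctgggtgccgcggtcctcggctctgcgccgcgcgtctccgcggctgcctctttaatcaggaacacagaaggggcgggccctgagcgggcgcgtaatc
Vegfb (chr19:6987652-6987901, minus strand): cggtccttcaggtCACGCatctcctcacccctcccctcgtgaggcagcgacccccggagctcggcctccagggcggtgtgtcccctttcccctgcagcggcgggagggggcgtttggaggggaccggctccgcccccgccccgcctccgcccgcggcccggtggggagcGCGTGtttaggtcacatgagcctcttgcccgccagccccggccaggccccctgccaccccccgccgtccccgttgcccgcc
Vegfa (chr17:46032378-46032627, minus strand): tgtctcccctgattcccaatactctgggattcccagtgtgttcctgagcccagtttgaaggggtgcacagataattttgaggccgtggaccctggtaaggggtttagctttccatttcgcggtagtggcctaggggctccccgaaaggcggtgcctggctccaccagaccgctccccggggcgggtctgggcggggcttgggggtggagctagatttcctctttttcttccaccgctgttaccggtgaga
Nrp2 and Vegfb held 2 cores each, and this Vegfa window held 0, while a window at a later Vegfa start held 2. Hif1a held 3 core matches, of which 2 overlap in the letters CACGTG, Flt1 and Nrp1 held 1 each, and Vegfc and Tek held 0. The windows of Hif1a, Flt1 and Nrp1 lie inside the RefSeq gene, before a later start, and that of Tek spans the gene start. Among all 32851 windows of the same length, 38.6% held at least 1 core and 16.7% at least 2. These matches are letters in a window and were not tied to any binding measurement. Bases further upstream were not searched, so a window with 0 cores does not show that a gene lacks such a site. Windows for Epas1 and Angpt1 were not used here.

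Nrp2 was the member whose level stood higher in Mkx-/- cells in every cluster. The gene encodes neuropilin 2, a co-receptor for VEGF-C and for class 3 semaphorins. Its level over all cells was 112.6 CPM (107.1 to 118.4) for WT against 207.6 CPM (200.1 to 215.2) for Mkx-/-, which is a log2 ratio of 0.88 (0.79 to 0.97). WT TPC-like cells were at 44.1 CPM (38.6 to 50.1) and Mkx-/- ones at 116.4 CPM (107.3 to 126.2), with a log2 ratio of 1.40 (1.18 to 1.63). In cluster 3 the levels were 129.4 and 210.1 CPM, a log2 ratio of 0.70 (0.47 to 0.93), with 38.8% of the WT reads there in 1 cell, and the ratio was 1.13 without the leading cell of each genotype. In TC-like cells they were 164.4 and 274 CPM, a log2 ratio of 0.74 (0.63 to 0.85). Of 5379 genes with enough reads in all 3 clusters, 1.52% were at least 1.5-fold higher in each of them. The deepest WT cell held 7.49% of the WT Nrp2 reads, and without it the ratio over all cells was 0.96 (0.87 to 1.05).

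More cells carried a Nrp2 read as well. The share was 46.7% of WT cells and 63.8% of Mkx-/- cells, and 40.7% and 55.9% after each cell was thinned to 25000 reads, which left out 11 WT and 13 Mkx-/- cells. By cluster the shares were 36.4% and 51% in TPC-like cells, 37% and 61.4% in cluster 3, and 67.6% and 81.3% in TC-like cells. Per-cell levels ranged from 0 to 1248 CPM in WT, with a median of 0, and from 0 to 1372 CPM in Mkx-/-, with a median of 40.9, so the genotypes overlapped widely. The standard deviation over cells was 185.9 CPM in WT and 273 CPM in Mkx-/-, above the mean per-cell levels of 91.9 and 184.9 CPM.

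**Figure D1:**
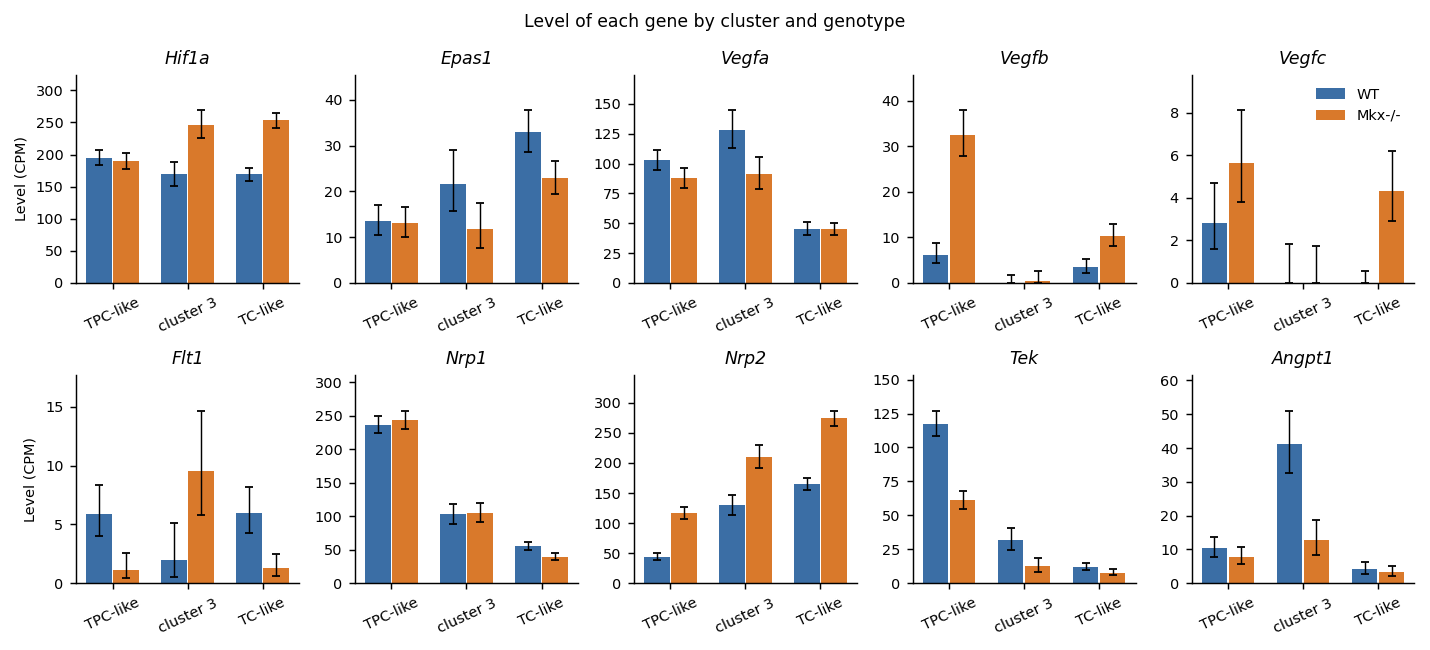
Level of each of the 10 genes in CPM (vertical axis) by cluster (horizontal axis) in WT (blue) and Mkx-/- (orange) cells, with bars for summed reads over summed depth and error bars for exact Poisson 95% intervals, each panel on its own scale. Nrp2 stood higher in Mkx-/- cells in all 3 clusters, and Nrp1 was highest in TPC-like cells of both genotypes, at 237 and 244 CPM.

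Nrp1, which encodes neuropilin 1, a co-receptor for VEGF-A and for Sema3a, was distributed over the clusters in the opposite order. Its level was 237 CPM (224 to 250.4) in WT and 244 CPM (231 to 258) in Mkx-/- TPC-like cells. In cluster 3 it was 102.8 and 105.04 CPM, and in TC-like cells 55.1 and 39.9 CPM. The order TPC-like, cluster 3, TC-like held in both genotypes with intervals that did not overlap. The order for Nrp2 was the reverse in both genotypes, with neighbouring intervals apart in Mkx-/-. In WT the Nrp2 intervals were apart with the deepest cell included, while without it that of TC-like cells (144.7 to 164.7 CPM) overlapped that of cluster 3 (114.1 to 146.2 CPM). Nrp1 over all cells stood at 132.6 CPM for WT and 123.6 for Mkx-/-, a log2 ratio of -0.10 (-0.20 to -0.01), and 48.5% and 49.1% of cells carried a read. Within clusters the log2 ratio was 0.04 (-0.07 to 0.16), 0.03 (-0.25 to 0.31) and, in TC-like cells, -0.47 (-0.70 to -0.23). In TC-like cells 1 cell held 28.6% of the WT Nrp1 reads and 1 cell held 13% of the Mkx-/- reads. Under 5 alternatives the TC-like ratio ran from -0.52 to -0.17, so its size depended on how cells were counted.

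The mix of neuropilin reads differed between clusters and between the genotypes. The reads were not scaled by gene length, so the share compares groups of cells and not the 2 genes. Of all reads of both genes, Nrp2 took 15.7% (13.9 to 17.6, exact Clopper-Pearson) in WT and 32.3% (30.2 to 34.5) in Mkx-/- TPC-like cells. In cluster 3 it took 55.7% and 66.7%, and in TC-like cells 74.9% and 87.3% (72.9% in WT without the deepest cell). In WT, 1 cell held 38.8% of the cluster 3 Nrp2 reads and 1 cell held 28.6% of the TC-like Nrp1 reads. The shares were not computed without these cells, so the sizes of the differences between genotypes there may rest on them. Both genes were read in 27.1% of the 451 cells, Nrp1 alone in 21.7%, Nrp2 alone in 28.2% and neither in 23.1%. Across all 451 cells the Pearson correlation of their log2(CPM + 1) values was -0.02, a description over cells that differ in depth and cluster and are not replicates.

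**Figure D2:**
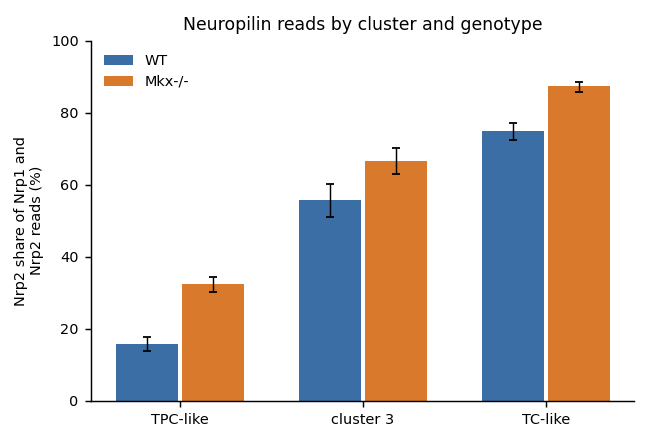
Share of Nrp1 and Nrp2 reads that were Nrp2, in percent (vertical axis), by cluster (horizontal axis) in WT (blue) and Mkx-/- (orange) cells, with exact Clopper-Pearson 95% intervals for counting error. The share was lowest in WT TPC-like cells (15.7%) and highest in Mkx-/- TC-like cells (87.3%). In WT, 1 cell held 38.8% of the cluster 3 Nrp2 reads and 1 cell held 28.6% of the TC-like Nrp1 reads.

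Tek, the angiopoietin receptor, was lower in Mkx-/- cells. Summed over all cells, Tek stood at 55.8 CPM (51.9 to 59.9) for WT against 27.9 CPM (25.2 to 30.7) for Mkx-/-, which gives a log2 ratio of -1.0 (-1.18 to -0.83). A read of Tek was present in 52 of 227 WT cells and in 36 of 224 from Mkx-/- mice (22.9% and 16.1%, or 20.8% and 14.7% after thinning). The lowest and median cells of both genotypes were at 0, and the highest reached 1386 (WT) and 2774 CPM (Mkx-/-), so the genotypes overlapped and the highest single value was in Mkx-/-. With each cell weighted equally the log2 ratio over all cells was -0.60.

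Most Tek reads were in TPC-like cells, where WT stood at 117.5 CPM and Mkx-/- at 61.1 CPM, a log2 ratio of -0.94 (-1.15 to -0.75). That ratio was -0.45 with each cell weighted equally, so it fell short of 1.5-fold. In TC-like cells Tek was at 12.1 and 7.81 CPM, a log2 ratio of -0.63 (-1.16 to -0.11), with 77.8% of the Mkx-/- reads in 1 cell. In cluster 3 there were 63 WT and 27 Mkx-/- reads, too few for a call. The deepest WT cell, with its endothelial markers, held 0 Tek reads, and without it the ratio over all cells was -1.04.

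Tek is known as an endothelial receptor, and the cells that carried it here were checked against the 15 endothelial markers. Of the 88 cells with a Tek read, 64 were TPC-like (72.7%). Without the deepest WT cell 362 cells had no Tek read, and 39.5% of these were TPC-like. Cells with 3 or more endothelial markers were 0 of the 88 and 5 of the 362, too few to compare. At least 1 endothelial marker was read in 45.5% of the 88 and in 41.2% of the 362. Summed endothelial markers were at 33.5 CPM in cells with a Tek read and 40.2 CPM in those without. Median depth was 52072 and 53898 reads. Angpt1, the ligand of Tek, was read in 11 of the 88 (12.5%) and in 7.71% of all 363 cells with no Tek read.

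**Figure D3:**
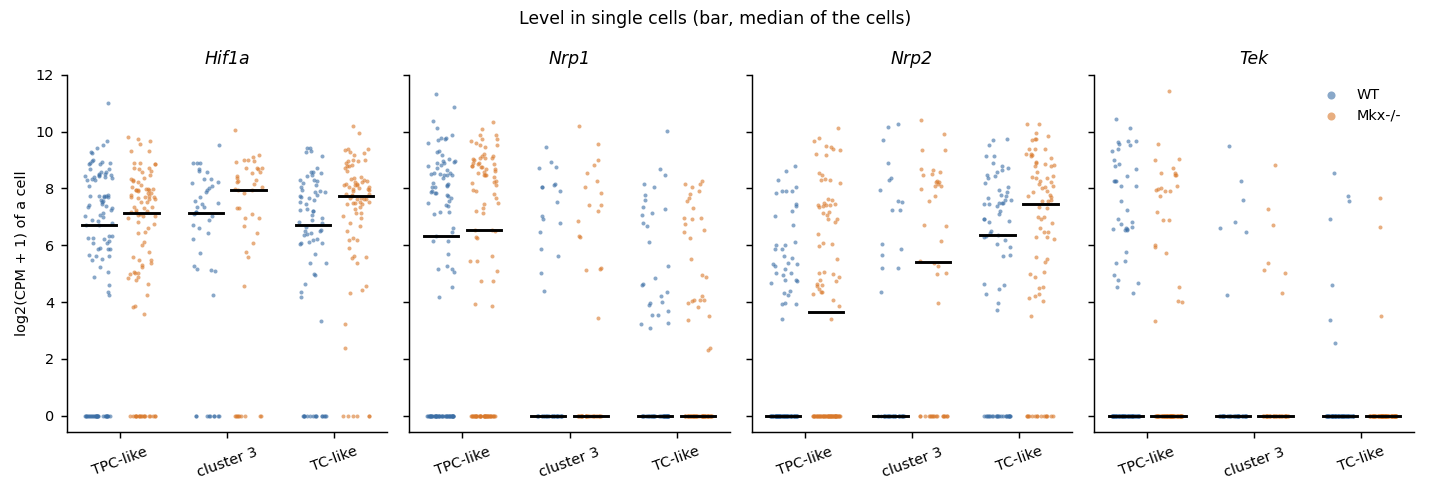
log2(CPM + 1) in single cells (vertical axis) for Hif1a, Nrp1, Nrp2 and Tek by cluster (horizontal axis) in WT (blue) and Mkx-/- (orange), 1 point per cell, with black bars for the median of the cells. Cells without a read lie at 0, and the points of both genotypes overlap in every panel, with median Hif1a levels over all cells of 114.9 CPM (WT) and 184.96 CPM (Mkx-/-).

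Hif1a was read in more cells than any other member, and its level in Mkx-/- cells exceeded that in WT beyond counting error in TC-like cells and cluster 3 but not in TPC-like cells. No cluster reached 1.5-fold with all cells included. WT TC-like cells were at 169.4 CPM (159.4 to 179.8) and Mkx-/- ones at 253 CPM (242 to 265), a log2 ratio of 0.58 (0.47 to 0.69), just short of 1.5-fold, and 0.64 (0.53 to 0.75) without the deepest WT cell. The median of all genes in TC-like cells was 0.20 on the same scale. In cluster 3 the levels were 169.01 and 247 CPM, a log2 ratio of 0.55 (0.34 to 0.75). In TPC-like cells they were 194.9 and 189.8 CPM, a log2 ratio of -0.04 (-0.17 to 0.09). The share of TC-like cells with a read was 79.7% for WT and 92.5% for Mkx-/-.

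All cells together gave Hif1a levels of 179.2 CPM (172.2 to 186.5) for WT and 229 CPM (221.4 to 237) for Mkx-/-, a log2 ratio of 0.36 (0.28 to 0.43), with reads in 76.7% and 84.8% of cells. The lowest cell of each genotype was at 0, the median cells were at 114.9 and 184.96 CPM, and the highest was 2034 and 1171 CPM. The leading cell held 4.91% of the WT and 2.37% of the Mkx-/- reads. The highest level was in TPC-like cells for WT and in TC-like cells for Mkx-/-. In Mkx-/- the interval of the top cluster overlapped that of cluster 3 but not that of TPC-like cells. In WT the interval of the top cluster overlapped that of cluster 3 but not that of TC-like cells, and 1 cell held 11.7% of the WT TPC-like reads. Without that cell WT TPC-like cells were at 174.1 CPM (163.005 to 185.8), which overlapped the interval of TC-like cells as well.

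Epas1, which encodes another oxygen-regulated alpha subunit that is prominent in endothelium, had a lower level in Mkx-/- cells with the deepest WT cell included, and a ratio whose interval spanned 0 without it. Its overall level was 23.7 CPM (21.2 to 26.4) for WT and 17.7 CPM (15.6 to 20) for Mkx-/-, a log2 ratio of -0.42 (-0.67 to -0.18). The deepest WT cell held 86 of the 323 WT reads (26.6%), and without it the ratio was -0.01 (-0.27 to 0.25). In TC-like cells the ratio was -0.53 with that cell and 0.16 (-0.19 to 0.51) without it. These cells had the highest level in Mkx-/-, at 22.8 CPM, and in WT only with the deepest cell, at 32.9 CPM, since without it they stood at 20.4 CPM beside 21.6 CPM in cluster 3. In TPC-like cells Epas1 was at 13.4 and 13.1 CPM. The cells with an Epas1 read were 18.5% of WT and 17% of Mkx-/- ones, and Hif1a and Epas1 were read together in 64 cells.

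Among the ligands, Vegfa was the one read in most cells, in 55.1% of WT and 51.3% of Mkx-/- cells. Vegfa encodes the principal vessel growth factor. The level over all WT cells was 79.6 CPM (74.9 to 84.5), and over all Mkx-/- cells 67.3 CPM (63.1 to 71.7), a log2 ratio of -0.24 (-0.37 to -0.12). By cluster it was 102.7 and 87.6 CPM in TPC-like cells, 127.9 and 91.3 CPM in cluster 3, and 45.2 and 45 CPM in TC-like cells. No ratio reached 1.5-fold, with log2 values of -0.23 (-0.41 to -0.05), -0.49 (-0.76 to -0.21) and -0.01 (-0.24 to 0.23). In cluster 3 Vegfa passed 1.5-fold lower with each cell weighted equally (-0.95), when clustered without the listed genes (-0.66) and in 10 dimensions (-0.76). Per-cell levels ran from 0 to 1697 CPM in WT and from 0 to 785.5 CPM in Mkx-/-. Of cells with a Hif1a read 54.4% also had a Vegfa read, against 48.3% of cells without, and the direction turned after thinning to 25000 reads, with 42.2% and 46%. The Pearson correlation of their log2(CPM + 1) values over 451 cells was 0.02.

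Vegfb and Vegfc were read in few cells. Vegfb, a ligand of Flt1, had 55 reads in 12 WT cells and 239 reads in 22 Mkx-/- cells, levels of 4.04 and 16.9 CPM and a log2 ratio of 2.07 (1.64 to 2.52). TPC-like levels were 6.24 and 32.6 CPM, a log2 ratio of 2.38 (1.84 to 2.97), with 51.5% of the WT and 37.1% of the Mkx-/- reads in 1 cell. In TC-like cells there were 22 and 71 reads, and in cluster 3 there were 0 and 1. Without the cell with most Vegfb reads in each genotype the log2 ratio over all cells was 2.17. Vegfc, the lymphatic growth factor that binds Nrp2 and Flt4, had 15 reads in 2 WT cells and 59 in 8 Mkx-/- cells, below the minimum. In TC-like cells it had 0 WT reads, which allows up to 0.472 CPM at the floor of 3 reads, and 30 Mkx-/- reads in 4 cells.

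Flt1 and Angpt1 were sparse and uneven. Flt1, a VEGF receptor that also acts as a decoy, had 73 reads, in 8 cells, for WT and 35 reads, in 10 cells, for Mkx-/-, which gives a log2 ratio of -1.11 (-1.74 to -0.51). The deepest WT cell held 37 of the 73, and without it the log2 ratio was -0.13 (-0.84 to 0.58), with 36 WT and 35 Mkx-/- reads, too few for a call. With each cell weighted equally the log2 ratio over all cells was 0.03. In TPC-like cells the reads were 31 in WT and 6 in Mkx-/-, in cluster 3 they were 4 and 20, and in TC-like cells 38 and 9, of which 1 WT read was left without the deepest cell. At least 1 endothelial marker was read in 11 of the 17 remaining cells with a Flt1 read (64.7%) and in 41.1% of the 433 without.

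Angpt1, the activating ligand of Tek, was read in 21 WT and 18 Mkx-/- cells, with levels of 12 and 6.43 CPM and a log2 ratio of -0.90 (-1.29 to -0.52). With each cell weighted equally it was -0.39. Cluster 3 had its highest level, 41.1 CPM for WT and 12.8 CPM for Mkx-/-, a log2 ratio of -1.68 (-2.36 to -1.04). These cluster 3 reads came from 7 WT and 6 Mkx-/- cells, with 46.3% of the WT and 77.8% of the Mkx-/- reads in 1 cell. In TPC-like cells there were 55 and 40 reads, and in TC-like cells 27 and 24, too few for a call in either.

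**Figure D4:**
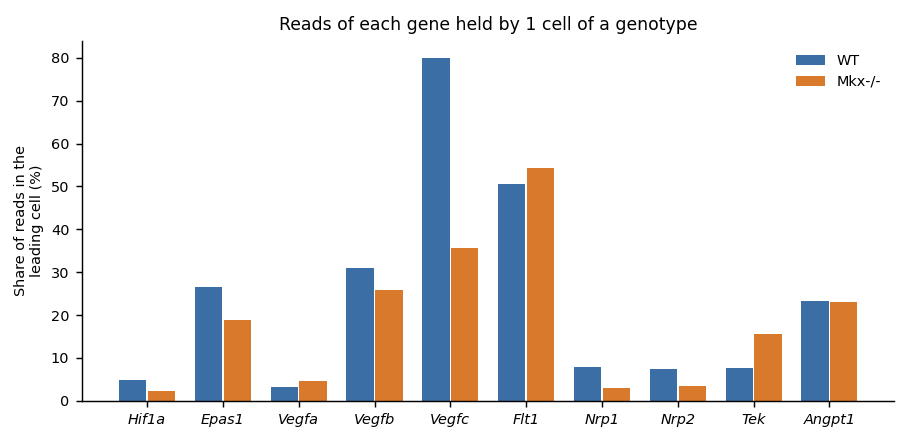
Share of each gene's reads, in percent (vertical axis), held by the single cell with most reads of that gene in WT (blue) and Mkx-/- (orange), with the 10 genes along the horizontal axis. The share was 2.37% to 7.86% for Hif1a, Vegfa, Nrp1 and Nrp2 in both genotypes, 50.7% for Flt1 in WT and 80% for Vegfc in WT.

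Counted over all cells, 9 of the 10 members had enough reads. Of these 2 were at least 1.5-fold higher in Mkx-/- cells (Vegfb and Nrp2), where 16% of all genes were, and 3 were lower (Flt1, Tek and Angpt1), where 13.1% of all genes were. Their median log2 ratio was -0.24, beside 0.05 for all genes. Without the deepest WT cell 8 had enough reads, 2 were higher, 2 were lower and the median was -0.07. Of all genes with enough reads, 98.5% had a lower ratio than Vegfb, 91% a lower one than Nrp2 and 6.07% a lower one than Tek.

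Within clusters the counts were small. In TPC-like cells 2 of 7 members were higher (Vegfb and Nrp2, with 17.2% of all genes higher) and 1 was lower (Tek, with 15.8% of all genes lower). In cluster 3 it was 1 of 5 higher (Nrp2, 23% of all genes) and 1 lower (Angpt1, 18.9%). In TC-like cells 1 of 6 was higher (Nrp2, 28% of all genes) and 1 lower (Tek, 13.2%), and 2 were higher without the deepest WT cell, with Hif1a added.

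**Figure D5:**
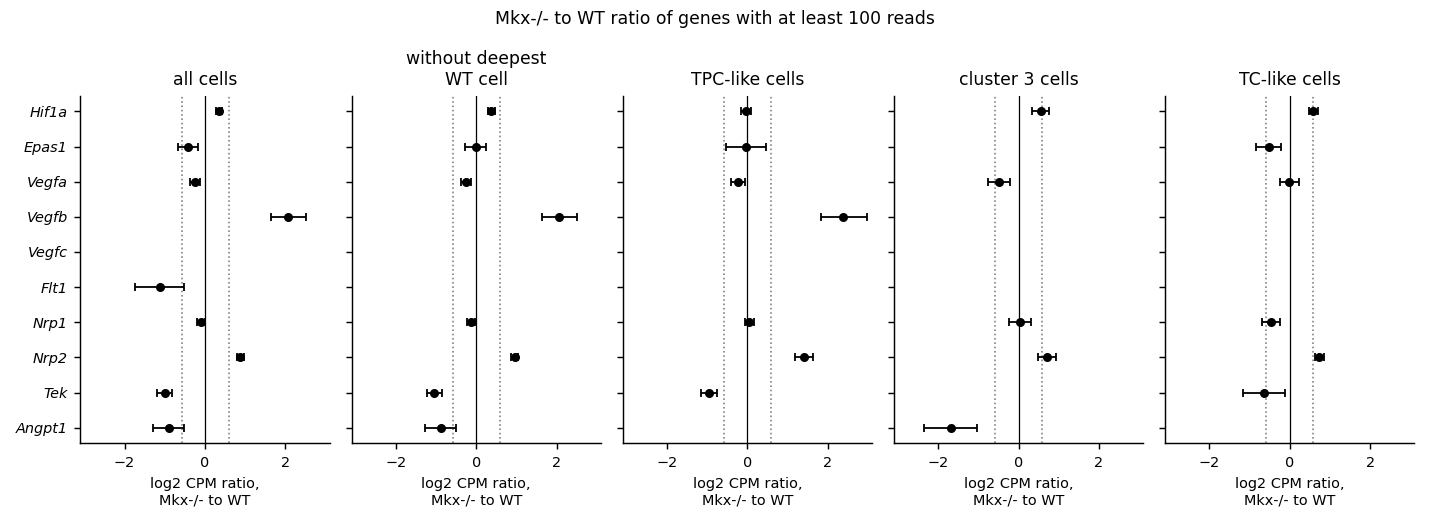
log2 CPM ratio of Mkx-/- to WT (horizontal axis) for the 10 genes (vertical axis) over all cells, without the deepest WT cell and in each cluster, with exact conditional binomial 95% intervals for counting error, dotted lines at 1.5-fold, and no point for a gene under 100 reads. Nrp2 lies right of the upper line in all panels (0.88 over all cells), and Epas1 moves from -0.42 to -0.01 without the deepest WT cell.

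Genes around the members were counted in 4 lists, beside the 16% of all genes that were higher and the 13.1% that were lower. Of 10 regulators of hypoxia factors, 8 had enough reads, 1 was higher in Mkx-/- cells and 3 were lower, with a median log2 ratio of -0.27. The higher one was Hif1an, the asparagine hydroxylase that inhibits the factor, at 6.68 and 17 CPM, a log2 ratio of 1.35 (0.99 to 1.71). The lower ones were Cul2 at -1.18 (-1.52 to -0.85), Arnt2 at -1.01 (-1.29 to -0.73) and Vhl at -0.85 (-1.09 to -0.61). Without the deepest WT cell 4 were lower, with the addition of Arnt, the common partner of the alpha subunits, at -0.60. Vhl and Cul2 belong to the ubiquitin ligase that removes the alpha subunits, and Arnt2 is a partner subunit. Rbx1, of the same ligase, went the other way at 0.41 (0.31 to 0.51), short of 1.5-fold. In TPC-like cells Vhl was not lower, at 30.7 CPM for WT and 35.9 CPM for Mkx-/-.

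Of 26 targets of hypoxia factors, 21 had enough reads, 1 was higher, 3 were lower and the median was -0.08. Pdk1, a brake on pyruvate entry into mitochondria, was higher at 0.77 (0.47 to 1.07), with 32.9% of its Mkx-/- reads in 1 cell. By cluster Pdk1 was at 7.76 CPM for WT and 5.07 CPM for Mkx-/- in TPC-like cells. In cluster 3 it was at 6.02 and 16.2 CPM, and in TC-like cells at 14.6 and 28.6 CPM. Car9, a carbonic anhydrase, was lower at -1.77 (-1.98 to -1.55), from 56.8 CPM in WT to 16.7 CPM in Mkx-/-, as were Mxi1 at -0.87 and Bnip3 at -0.79. The glycolysis genes among them with enough reads stayed short of 1.5-fold. Pgk1, Eno1 and Hk2 were at 0.27, 0.12 and 0.10. Aldoa, Ldha, Tpi1 and Pfkfb3 were at -0.05, -0.14, -0.28 and -0.47.

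Of 21 other genes of VEGF, angiopoietin and semaphorin signalling, 12 had enough reads, 0 were higher, 1 was lower and the median was -0.18. The lower one was Plxna3, a plexin that pairs with neuropilins, at -1.30 (-1.87 to -0.75) on 95 WT and 40 Mkx-/- reads. Sema3e at 0.56, Angptl1 at 0.55 and Sema3a at -0.43 were the next in size and stayed short of 1.5-fold. Without the deepest WT cell 1 was higher, the neuropilin ligand gene Sema3f, at 0.71 where it was 0.20 with that cell. The main endothelial VEGF receptor gene Kdr had 79 reads in WT, 93.7% of them in the deepest cell, and 5 in Mkx-/-, and Flt4 had 14 and 0.

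Of 11 genes listed here as vessel-inhibiting matrix proteins, 10 had enough reads, 4 were higher, 0 were lower and the median log2 ratio was 0.43. That role was not checked gene by gene, Chad included, and the study groups Thbs1 with proangiogenic genes. Chad, which encodes a leucine-rich matrix protein of cartilage, was at 159.1 CPM for WT and 407 CPM for Mkx-/-, a log2 ratio of 1.35 (1.28 to 1.43), and was read in 37.4% and 64.7% of cells. Thbs2, a thrombospondin, was at 280.0 CPM and 693 CPM, a log2 ratio of 1.31 (1.25 to 1.36). Thbs1 was at 0.88 (0.77 to 0.998) and the protease gene Adamts1 at 0.83 (0.76 to 0.91). Without the deepest WT cell 5 were higher, with Col18a1 added at 0.79 where it was 0.39 with that cell, and the median was 0.62. Tnmd and Sparc of the same list were at 0.46 and -0.22. By cluster 4 of 10 were higher and 0 lower in TC-like cells, where 28% of all genes were higher and 13.2% lower. In TPC-like cells 2 of 10 were higher and 1 lower, beside 17.2% and 15.8% of all genes. In cluster 3 it was 3 higher and 2 lower of 10, beside 23% and 18.9% of all genes. In cluster 3 Chad stood at 77.2 CPM for WT and 28.5 CPM for Mkx-/-, and Timp3, an inhibitor of metalloproteinases, at 47.6 and 5.23 CPM. The lists were chosen with results of these data known.

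Markers of other cell types were summed beside these results. The 15 endothelial markers were at 85.8 CPM in WT, 36.6 CPM without the deepest WT cell, and 41.3 CPM in Mkx-/-, with single cells from 0 to 2037 CPM and from 0 to 707 CPM, and 6 cells held 3 or more of them. The 13 mural markers were at 127.4 CPM, 108.1 CPM without the deepest cell, and 104.6 CPM. The 5 nerve sheath markers were at 136.6 CPM, 98.9 CPM without the deepest cell, and 202.2 CPM, with at least 1 of them read in 24.3% of WT and 55% of Mkx-/- TPC-like cells. The 4 lymphatic markers were at 8.51 CPM for WT and 19.2 CPM for Mkx-/-. In TPC-like cells they were at 6.81 and 47.2 CPM, read in 2.8% and 12% of cells, with 1 Mkx-/- cell at 1673 CPM and 2 of the 4 at 0 in each genotype. The 8 immune markers were at 122.96 CPM for WT and 92.5 CPM for Mkx-/-. The 10 genes of the response to tissue dissociation, among them stress-induced transcription factors, stood at 2695 (WT) and 2391 CPM (Mkx-/-). Their part in the members' ratios was not tested.

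Genes whose level across cells was most like a member's were sought among 5125 genes read in at least 20% of the 451 cells, by the Pearson correlation of log2(CPM + 1). For Nrp2 they were Tlr2 (0.35), Fmod (0.34) and Cilp2 (0.34), and for Nrp1 they were Fbn1 (0.34), Fstl1 (0.34) and Emilin2 (0.33). For Hif1a they were Map2k3 (0.30), Lgals3 (0.29) and Cav1 (0.27), and for Vegfa they were Ewsr1 (0.26), Gfpt2 (0.22) and Sh3pxd2a (0.22). The cells differ in depth and cluster and are not replicates, and the members' own correlation with log2 depth was 0.30, 0.03, 0.26 and 0.06 in the same order. The other 6 members were read in fewer than 20% of cells.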

How the data were processed

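Cells of WT and Mkx-/- tail tendon were captured on a Fluidigm C1 high-throughput chip, 1 cell to a library. The authors cleaned reads with AfterQC and NGSQCToolkit, mapped them with bowtie2 and counted them per gene with featureCounts. The deposited values are raw counts of reads, without molecular identifiers. The study's methods name genome build mm9, whereas the submitters' processing notes name mm10, and strand and the treatment of multiply mapped reads were not given in the sources used here, so reads of an antisense or overlapping gene could not be told apart. In GENCODE M1, exons of Hif1a and Angpt1 overlapped an opposite-strand gene and those of Nrp1 a microRNA, and no member transcript matched elsewhere in the genome over 150 bases at 90% identity.

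Groups came from the genotype label. CPM were computed from counts of the 451 cells with Python 3.11.15 (numpy 2.4.6, scipy 1.17.1, pandas 2.3.3). Clusters were rebuilt with Seurat 5.3.0 in R 4.3.3 from the union of the 1000 most variable genes per genotype, by canonical correlation analysis in 4 dimensions at resolution 0.4. Doublets were not called, since the submitters had excluded wells with several cells. Whether the deepest WT cell came from such a well was not tested. No 2 cells held identical values. Because each genotype was 1 sample, no test was made. Ratios and intervals were run on simulated Poisson counts with known folds, without spread between cells or mice. That is the model behind the intervals, so it checked the computation and not whether the intervals suit these cells. Every member was named, and of each wider list at most the 4 genes with the largest log2 ratio among those with at least 100 reads. Pgk1, Ldha, Tnmd, Sparc, Kdr, Flt4, Arnt, Sema3f, Col18a1 and Timp3 fall outside that rule. So do Rbx1, Aldoa, Eno1, Tpi1, Hk2 and Pfkfb3, and all of these were chosen after their values were seen. The members and lists were chosen with earlier results of these data known. Alternatives left out the deepest WT cell, cells with 3 or more endothelial markers or the leading cell, weighted cells or clusters equally, thinned cells to 25000 reads, changed scaling or the minimum (with a pseudocount of 1 CPM), kept cells with at least 2500 genes, or rebuilt the clusters without the listed genes or in 10 dimensions.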

Additional observations from a re-analysis of the deposited data

How the results depend on the processing

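Nrp2, Vegfb and Hif1a kept a higher level and Tek and Angpt1 a lower level in Mkx-/- cells, over all cells, under all 10 alternatives, with log2 ratios from 0.82 to 1.27, 1.71 to 2.28, 0.30 to 0.42, -1.36 to -0.60 and -1.44 to -0.39. The Flt1 ratio turned to 0.032 with each cell weighted equally and to 0.127 in cells thinned to 25000 reads. The median log2 ratio of the members became -0.073 without the deepest WT cell, -0.0902 without cells with 3 or more endothelial markers, -0.054 with cells weighted equally and 0.127 after thinning. With cells weighted equally, the number of lower members became 1 over all cells, 0 in TPC-like cells and 2 in cluster 3. In cluster 3 it became 4 when clustered without the listed genes, which moved 31 cells there from the TPC-like cluster, and 3 in 10 dimensions, where 2 members were higher, with Vegfa among the lower ones under all 3 settings. In TC-like cells 2 members were higher without the deepest WT cell, with cells weighted equally, or without the leading cell of each gene. The shares of all genes that were higher or lower were computed for the main setting only, where 18.9% were lower in cluster 3. These changed counts therefore have no share to be set beside and are not read as a result about the members. The counts of the wider lists without the deepest WT cell, and Hif1a levels by cluster without their leading cell, were added after seeing the data. The cause of these changes was not tested. No paired analysis was possible because the labels tie no cell to a mouse, chip or replicate. Depth limits Vegfc, Vegfb, Flt1 and Angpt1, whose reads come from few cells, and 1 cell can set their level. Intervals do not cover differences between mice, which these data cannot show.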

Other observations

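Pgf, the placental growth factor that binds Flt1, was read in 31.7% of Mkx-/- and 23.8% of WT cells, while its level was 68.4 CPM in Mkx-/- and 79.97 CPM in WT, a log2 ratio of -0.22 (-0.35 to -0.10). The gene was chosen after its values were seen.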
